A study of Mus musculus with 15 samples.

Results

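The insulin-like growth factor (IGF) and growth hormone genes of mouse cumulus cells were followed over 3 stages of oocyte competence. They were 10 genes, chosen by symbol: the ligand Igf1, the receptors Igf1r, Igf2r and Ghr, the binding proteins Igfbp2, Igfbp4, Igfbp5 and Igfbp7, and the receptor substrates Irs1 and Irs2. Of these 10 genes, 9 had probes in the authors' table of present probes, which names 15087 genes, and they took 16 of its 20855 gene probes. Of the 16 probes, 15 belonged to the 17323 that were valid, meaning well above background in at least 4 of 5 arrays of every stage. Igfbp7 had no probe in the table, and its single array probe was well above background in 0 of 15 arrays.

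IGF1 acts on the receptor tyrosine kinase IGF1R, which signals through IRS docking proteins to the phosphatidylinositol 3-kinase (PI3K) and AKT pathway. Growth hormone acts through its receptor GHR and the kinase JAK2 on STAT5 transcription factors, and IGF1 is a classical product of growth hormone action. IGF binding proteins hold IGFs outside the cell until proteases release them, and in rodents the granulosa cells of growing follicles are known to make IGF1 and to respond to it together with follicle-stimulating hormone.

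Cumulus cells are the somatic cells around the oocyte, here from B6CBAF1/J mice with no engineered allele. NC1 cells came from unexpanded complexes punctured out of large follicles of 3-week-old mice, with prophase I oocytes that the labels call developmentally incompetent and the study incompetent or poorly competent. C1 cells were taken the same way at 8 weeks of age, when prophase I oocytes were competent. C2 cells came from expanded complexes flushed from the oviduct of 8-week-old females given pmsg and then hCG, with oocytes in metaphase II, and were dispersed with hyaluronidase. Each stage had 5 arrays, each of cells pooled from several mice, hybridised with 1 dye. Stage cannot be told apart from age between NC1 and C1, nor from hormones, the oviduct as source and the enzyme from C1 to C2. In bulk samples fewer cells of a type and less RNA per cell cannot be told apart.

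Between 18366 and 24493 gene probes were well above background per array, and no gene spot was saturated. The number of arrays limits the precision. The labelled cell type was checked against 10 cumulus and granulosa markers, and all 10 were valid at all stages. At C2, 9 of the 10 were lower than at C1 (limma, adjusted p under the threshold of 0.01), and the exception was Foxl2 (log2 difference 0.032, limma adjusted p = 0.908). Of all valid probes, 22.2% were lower in this comparison by the same test. Their summed level lay between 7.85 and 8.19 at NC1, 7.93 and 8.13 at C1, and 5.47 and 5.85 at C2 on the log2 scale. Of 8 theca and stroma markers 5 were valid, and all 5 were lower at C2 than at C1, beside the 22.2% of all valid probes. Their sums went from 3.39 to 5.64 at NC1 and from 3.19 to 3.93 at C1 to between -1.08 and -0.49 at C2, where Pdgfra and Lum were well above background in 0 of 5 arrays. The 3 valid of 10 oocyte markers summed to 2.94 to 5.00 at NC1 and 3.05 to 4.86 at C1. At C2 these sums were 3.83, 3.60 and 3.69 in replicates 1 to 3 but -0.84 and -0.61 in replicates 4 and 5, so that the latter arrays stood apart. The summed markers were Gdf9, Npm2 and H1f8. Npm2 was lower at C2 than at C1 (-2.89, limma adjusted p = 5.51e-07), with an SD of 0.12 over the 5 C2 arrays. Gdf9 and H1f8 did not pass (-1.95 and -2.50). Zp2 and Zp3, well above background in all 5 arrays at NC1 and C1, were so in 0 and 3 of 5 C2 arrays. The 3 valid of 8 leukocyte markers summed to -1.01 to -0.15, -0.019 to 0.77 and 1.69 to 2.30 over the successive stages. From C1 to C2, Cd52 alone was called (3.01), while Csf1r (0.38, limma adjusted p = 0.232) and Tyrobp (0.78, limma adjusted p = 0.0272) did not pass. All 3 were called higher at C2 than at NC1, where 26.5% of all valid probes were higher. Outside the fit, Ptprc was well above background in 1, 1 and 4 arrays of the successive stages and Adgre1 in 1, 3 and 5. Lyz2 was so in 1, 2 and 3 arrays and Laptm5 in 0, 0 and 2. The 5 valid of 7 oviduct epithelium markers summed to 2.62 to 2.94, 2.83 to 3.55 and 4.64 to 4.91. Of these 5, Krt8 and Krt18 were higher at C2 than at C1 (1.30 and 1.76), Epcam and Tppp3 lower (-1.05 and -1.01), and Ovgp1 did not pass. The 2 valid of 6 endothelial markers summed to -0.88 to -0.40, -0.78 to -0.25 and -0.18 to 0.70. From C1 to C2, Cdh5 rose (1.50) and Kdr did not pass (0.086, limma adjusted p = 0.584). Outside the fit, Emcn was well above background in 1, 4 and 0 arrays of the successive stages, and Pecam1 in 3, 4 and 4. Tie1 was so in 0, 1 and 0 arrays and Tek in none. The 4 valid of 6 red blood cell markers summed to 6.07 to 8.61, 3.31 to 5.37 and 3.24 to 4.59. The part of these other cells in the results below was not tested.

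From NC1 to C1 the threshold was passed by Igfbp4 alone, whereas most of these genes were lower at C2. Between C1 and C2, 6 of the 9 measured genes fell, namely Igf1, Igf1r, Igf2r, Ghr, Igfbp2 and Igfbp5. Igfbp4 rose, and Irs1 and Irs2 did not pass the test. Values are log2 signals minus the median of the array over valid probes, so a difference of 1 is a 2-fold change, and each gene is read by its brightest valid probe. A gene was called at a Benjamini-Hochberg adjusted p under 0.01 in a limma model over the 15 arrays. Of all valid probes, 47.6% were called between C1 and C2, 22.2% as lower and 25.4% as higher. The median log2 difference of the 9 genes was -1.46, beside 0.021 over all valid probes. The groups did not overlap for 7 of the 9 genes, against 43.9% of all valid probes.

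**Figure D1:**
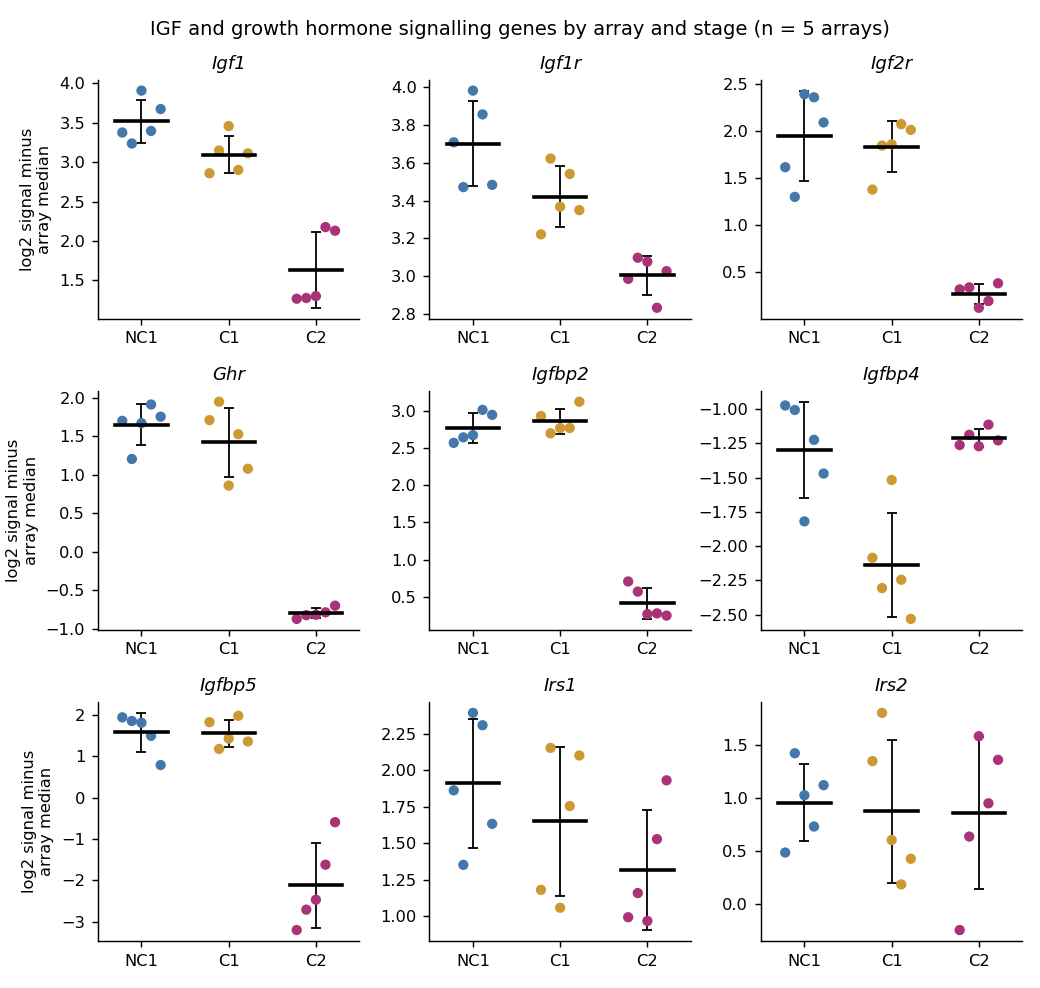
Log2 signal minus the array median (y axis, its own range in each panel) of the brightest valid probe of 9 IGF and growth hormone signalling genes, by stage (x axis). Each point is 1 array in replicate order, the horizontal bar is the mean and the whisker the SD (n = 5). The C2 points of Igf1, Igf1r, Igf2r, Ghr, Igfbp2 and Igfbp5 all lie below the NC1 and C1 points.

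Igf1, the ligand made locally in the follicle, read 3.37, 3.23, 3.90, 3.39 and 3.67 in NC1 replicates 1 to 5, 2.86, 3.15, 3.46, 2.90 and 3.11 at C1, and 1.27, 1.28, 1.30, 2.18 and 2.13 at C2. All C2 arrays were below all others, and within C2 replicates 4 and 5 were the highest. Stage means were 3.52 ± 0.27 (SD, n = 5) for NC1, 3.09 ± 0.24 for C1 and 1.63 ± 0.48 for C2. Igf1 was 2.76-fold lower at C2 than at C1 (log2 difference -1.46 ± 0.20 SE, limma adjusted p = 9.52e-06). From NC1 to C1 the difference was -0.42 ± 0.20 (limma adjusted p = 0.302). Leaving out C2 replicates 1 to 3, those with the higher oocyte marker sums, gave -0.94 for C2 minus C1 (limma adjusted p = 0.00133). Leaving out replicates 4 and 5 gave -1.81 (limma adjusted p = 5.06e-07), and both were called. Within the 4 slides, each of which held all 3 stages, the difference between C2 and C1 ran from -2.19 to -0.87.

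Igf1 had 5 probes in the table, and their differences had 1 direction. The 4 valid probes gave -1.46, -1.48, -1.72 and -2.01 for C2 minus C1, each called. Probe A_55_P2085979, which the files assign to another Igf1 transcript than the rest, gave the last of these values. It read between 0.62 and 1.56 in the NC1 and C1 arrays and between -1.32 and -0.65 at C2 (limma adjusted p = 4e-09). The remaining probe, A_55_P2031636, was well above background in all 5 arrays at NC1 and C1 but in 3 of 5 at C2, and so was outside the fit. It read -2.04, -2.20, -2.12, -2.20 and -1.61 at NC1, -2.89, -2.06, -2.18, -2.26 and -2.15 at C1, and -3.94, -4.77, -5.73, -3.79 and -3.71 at C2. These groups did not overlap either. Because C2 replicates 2 and 3 were not well above background, no exact fold is given for this probe.

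**Figure D2:**
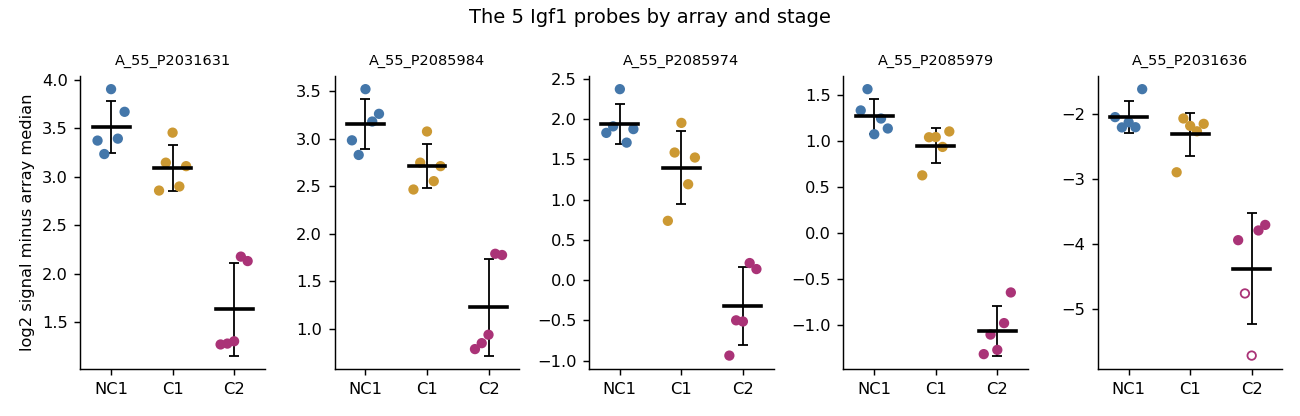
Log2 signal minus the array median (y axis, its own range in each panel) of the 5 Igf1 probes by stage (x axis). Points are arrays in replicate order, open where the probe was not well above background, with mean and SD (n = 5). In all 5 panels every C2 point lies below every NC1 and C1 point.

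Ghr, the growth hormone receptor, had the largest fall among the 3 receptors. It read 1.70, 1.20, 1.67, 1.91 and 1.75 at NC1, 1.71, 1.95, 0.86, 1.53 and 1.08 at C1, and -0.87, -0.83, -0.82, -0.79 and -0.70 at C2. The C2 arrays lay within a narrow band (SD 0.06, against 0.27 at NC1 and 0.45 at C1), and no other array overlapped it. Ghr was 4.68-fold lower at C2 than at C1 (-2.23 ± 0.18 SE, limma adjusted p = 2.35e-08), and its other probe, assigned to another transcript, gave -2.02 ± 0.21 (limma adjusted p = 4.84e-07). NC1 and C1 overlapped, with a difference of -0.22 ± 0.18 (limma adjusted p = 0.605). Within slides C2 was lower than C1 by 1.73 to 2.53 on the log2 scale.

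Igf2r encodes the mannose 6-phosphate receptor that carries IGF2 to lysosomes. It read 1.62, 1.30, 2.39, 2.36 and 2.09 at NC1, 1.38, 1.85, 1.86, 2.07 and 2.01 at C1, and 0.32, 0.34, 0.12, 0.20 and 0.38 at C2. The C2 arrays were all below the lowest NC1 array. The difference between C2 and C1 was -1.56 ± 0.19 SE, a 2.95-fold lower level (limma adjusted p = 2.6e-06), and that between C1 and NC1 was -0.12 ± 0.19 (limma adjusted p = 0.833).

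Igf1r, the signalling receptor for IGF1, changed least of the receptors. It read 3.71, 3.47, 3.98, 3.86 and 3.48 at NC1, 3.22, 3.62, 3.37, 3.54 and 3.35 at C1, and 2.99, 3.10, 3.08, 2.83 and 3.03 at C2. NC1 and C1 overlapped, and C2 lay below both. The level was 1.33-fold lower at C2 than at C1 (-0.42 ± 0.12 SE, limma adjusted p = 0.00577) and 1.62-fold lower than at NC1 (-0.70 ± 0.12, limma adjusted p = 6.76e-05), while C1 minus NC1 was -0.28 ± 0.12 (limma adjusted p = 0.223). The call between C2 and C1 was lost under 15 of 35 alternatives. With scaling on the median over all gene probes, which moved the median of all valid probes to 0.33, the difference was -0.11 (limma adjusted p = 0.671), and it was also lost without C1 replicate 2 or 4 or without C2 replicate 1, 4 or 5 (-0.42 to -0.37). The call between C2 and NC1 was lost under 5 of 35, with the median over all gene probes or the authors' table (-0.49), no filter (-0.49), spike-in scaling (-0.66) and a minimum of 2-fold.

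Among the binding proteins, Igfbp2 and Igfbp5 fell at C2 while Igfbp4 was lowest at C1. Igfbp2 and Igfbp5 are neighbours on mouse chromosome 1, on opposite strands and with no other gene start between them in RefSeq. Promoter windows of 250 bases before to 50 after the gene start are shown for these neighbours and for Igfbp4, which rose from C1 to C2. They are from RefSeq, build GRCm38.p6, 5′ to 3′ on the gene's strand: chr1:72824230-72824529 on the plus strand for Igfbp2, chr1:72874816-72875115 on the minus strand for Igfbp5 and chr11:99040994-99041293 on the plus strand for Igfbp4. Capitals mark the motifs searched, on both strands, with no overlap between motifs.
Igfbp2: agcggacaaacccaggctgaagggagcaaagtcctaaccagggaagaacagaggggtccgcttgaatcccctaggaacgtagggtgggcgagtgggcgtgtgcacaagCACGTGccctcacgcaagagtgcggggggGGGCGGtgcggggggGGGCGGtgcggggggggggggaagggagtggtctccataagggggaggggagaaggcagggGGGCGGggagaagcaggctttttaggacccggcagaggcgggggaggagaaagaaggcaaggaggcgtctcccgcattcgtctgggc
Igfbp5: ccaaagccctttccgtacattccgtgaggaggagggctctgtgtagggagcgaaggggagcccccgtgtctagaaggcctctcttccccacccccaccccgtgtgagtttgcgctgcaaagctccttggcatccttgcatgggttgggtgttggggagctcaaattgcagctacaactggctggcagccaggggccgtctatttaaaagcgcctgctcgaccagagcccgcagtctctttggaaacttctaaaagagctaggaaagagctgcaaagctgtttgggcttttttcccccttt
Igfbp4: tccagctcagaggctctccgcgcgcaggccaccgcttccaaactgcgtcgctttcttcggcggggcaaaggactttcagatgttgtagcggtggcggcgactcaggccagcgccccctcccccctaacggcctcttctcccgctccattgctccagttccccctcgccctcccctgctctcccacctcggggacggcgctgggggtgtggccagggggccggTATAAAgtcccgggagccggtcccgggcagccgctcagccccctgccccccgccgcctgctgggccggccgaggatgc
The Igfbp2 window held 1 E-box (CACGTG) and 3 GC boxes (GGGCGG), and the Igfbp4 window 1 TATA box (TATAAA). The Igfbp5 window held none of these letters. Of all 32851 promoter windows of this length, 7.15% held the E-box, 35.7% the GC box and 13.6% the TATA box. Of the 12 windows of the 10 genes, 4 held the E-box, 7 the GC box and 2 the TATA box. The cAMP response element TGACGTCA (1.79% of all windows) and the STAT5 element TTCNNNGAA (8.3%) were in 0 of these 12 windows. The G and C content was 67% for Igfbp2, 56.3% for Igfbp5 and 71.3% for Igfbp4.

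Igfbp2 read 2.57, 2.65, 2.68, 3.02 and 2.95 at NC1, 2.94, 2.70, 2.77, 2.77 and 3.13 at C1, and 0.70, 0.57, 0.26, 0.27 and 0.24 at C2. The prophase I stages overlapped in part, and all C2 arrays were below both. It was 5.47-fold lower at C2 than at C1 (-2.45 ± 0.13 SE, limma adjusted p = 1.57e-10), and its other probe gave -2.51 ± 0.13. The difference between C1 and NC1 was 0.089 ± 0.13 (limma adjusted p = 0.807).

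Igfbp5 read 1.95, 1.86, 1.82, 1.50 and 0.79 at NC1, 1.83, 1.18, 1.43, 1.99 and 1.36 at C1, and -3.21, -2.71, -2.47, -1.62 and -0.59 at C2. All C2 arrays were below the others but spread widely (SD 1.03), with replicates 4 and 5 the highest, as for Igf1. This was the largest change of the 9 genes, 12.8-fold lower at C2 than at C1 (-3.68 ± 0.38 SE, limma adjusted p = 3.89e-07). It was -4.36 without C2 replicates 4 and 5 and -2.67 without C2 replicates 1 to 3 (limma adjusted p = 8.81e-09 and 2.4e-05), and ran from -4.64 to -2.10 within slides. C1 minus NC1 was -0.024 ± 0.38 (limma adjusted p = 0.989).

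Igfbp4, whose product is a substrate of the protease PAPP-A, read -0.97, -1.01, -1.82, -1.23 and -1.47 at NC1, -2.09, -2.31, -1.52, -2.25 and -2.53 at C1, and -1.26, -1.19, -1.27, -1.11 and -1.23 at C2. The C1 arrays were the lowest, except that C1 replicate 3 lay within the NC1 range, and all were below C2. It was 1.90-fold higher at C2 than at C1 (0.92 ± 0.18 SE, limma adjusted p = 0.000307), higher in 4 of 4 slides by 0.25 to 1.26. This call was lost with spike-in scaling (0.80, limma adjusted p = 0.0265) and with a minimum change of 2-fold in addition. C2 minus NC1 was 0.087 ± 0.18 (limma adjusted p = 0.692).

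Between NC1 and C1, Igfbp4 was the only 1 of the 9 genes past the threshold, where 2.52% of all valid probes were called, 0.768% as lower. The difference was -0.84 ± 0.18 SE (limma adjusted p = 0.00986), just inside the threshold, and negative within 4 of 4 slides (-1.53 to -0.17). The call was lost under 24 of 35 alternatives with the direction kept under all of them. It was lost without any 1 array other than NC1 replicate 3 or C1 replicate 3, with differences of -0.99 to -0.74 over the 15 omissions. The groups did not overlap for 0 of the 9 genes, against 5.98% of all valid probes. The median difference of the 9 genes was -0.22, beside -0.030 over all valid probes.

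**Figure D3:**
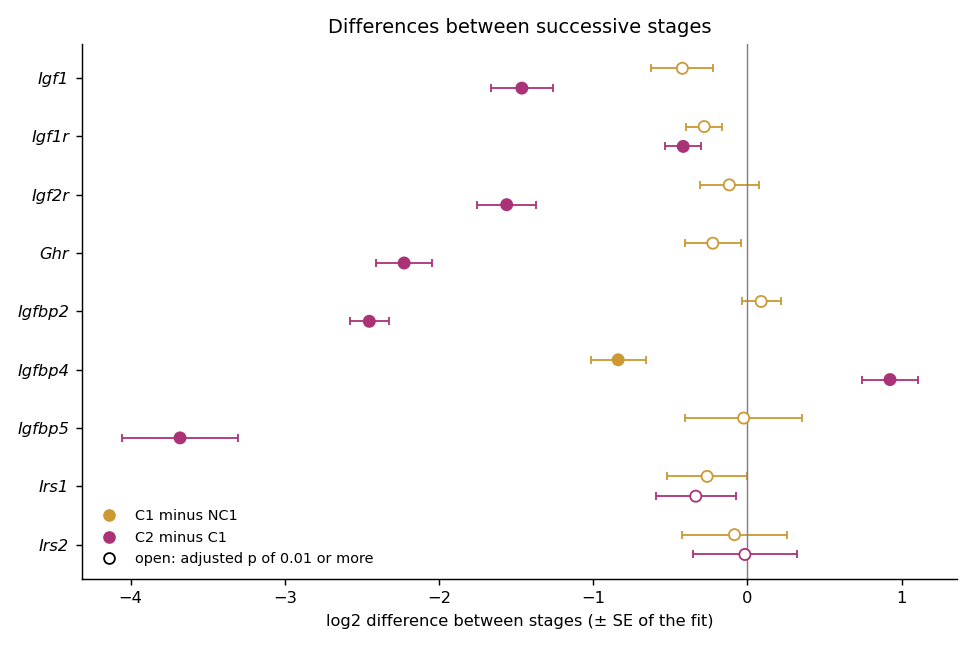
Log2 difference (x axis) between C1 and NC1 and between C2 and C1 for the 9 genes (y axis), each with the SE of the limma fit over 15 arrays. Filled points have an adjusted p under 0.01. The points for C2 minus C1 of Igf1, Igf2r, Ghr, Igfbp2 and Igfbp5 lie between -3.68 and -1.46, while those for C1 minus NC1 lie between -0.84 and 0.089. The 2 differences share the C1 arrays.

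The substrates of the IGF1 receptor did not pass the test by their brightest probes. Irs1 read 1.86, 1.35, 2.40, 2.31 and 1.63 at NC1, 1.18, 2.16, 1.06, 1.75 and 2.10 at C1, and 0.99, 1.16, 0.96, 1.53 and 1.93 at C2. The stages overlapped. C2 minus C1 was -0.33 ± 0.26 SE (limma adjusted p = 0.285) and C2 minus NC1 was -0.60 ± 0.26 (limma adjusted p = 0.0561). A dim probe of Irs1, well above background in 4 of 5 C2 arrays, gave -0.83 ± 0.24 for C2 minus NC1 (limma adjusted p = 0.00615), a call lost under 18 of 35 alternatives, and -0.74 ± 0.24 for C2 minus C1 (limma adjusted p = 0.0137).

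Irs2 read 0.48, 1.42, 1.02, 0.73 and 1.12 at NC1, 1.35, 1.80, 0.60, 0.18 and 0.42 at C1, and -0.25, 0.63, 1.58, 0.95 and 1.36 at C2. The spread within stages (SD 0.36, 0.68 and 0.72) exceeded the differences between means. C2 minus C1 was -0.016 ± 0.34 SE, with limma adjusted p = 0.972, and its sign turned under 11 of 35 alternatives.

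Between NC1 and C2, which share their arrays with both comparisons above, 6 of the 9 genes were lower and 0 were higher, where 51.5% of all valid probes were called, 24.9% as lower and 26.5% as higher. The count was 5 under 5 alternatives, those that ended the call of Igf1r. The median difference was -1.68, beside -0.013 over all valid probes. The groups did not overlap for 6 of the 9, against 48.9%. The changes were -1.88 ± 0.20 SE for Igf1, -1.68 ± 0.19 for Igf2r, -2.45 ± 0.18 for Ghr, -2.36 ± 0.13 for Igfbp2 and -3.70 ± 0.38 for Igfbp5, beside that of Igf1r above. A test over the 3 stages called 7 of the 9, and 51.6% of all valid probes.

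The rest of the pathway was read from lists of 50 other genes, of which 34 had a valid probe. From C1 to C2, 15 rose, 9 fell and 10 did not pass, where 25.4% of all valid probes rose and 22.2% fell, with a median of 0.30 (0.021 over all valid probes). From NC1 to C1, 4 rose, namely Prlr, Pappa, Stc2 and Cish, and 0 fell, where 1.75% of all valid probes rose and 0.768% fell. Of the other ligands and hormones, Igf2, Gh and Prl were well above background in 0 of 15 arrays. Ins2 was so in 4, 2 and 3 arrays of the successive stages, and none of the 4 was in the main fit.

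**Figure D4:**
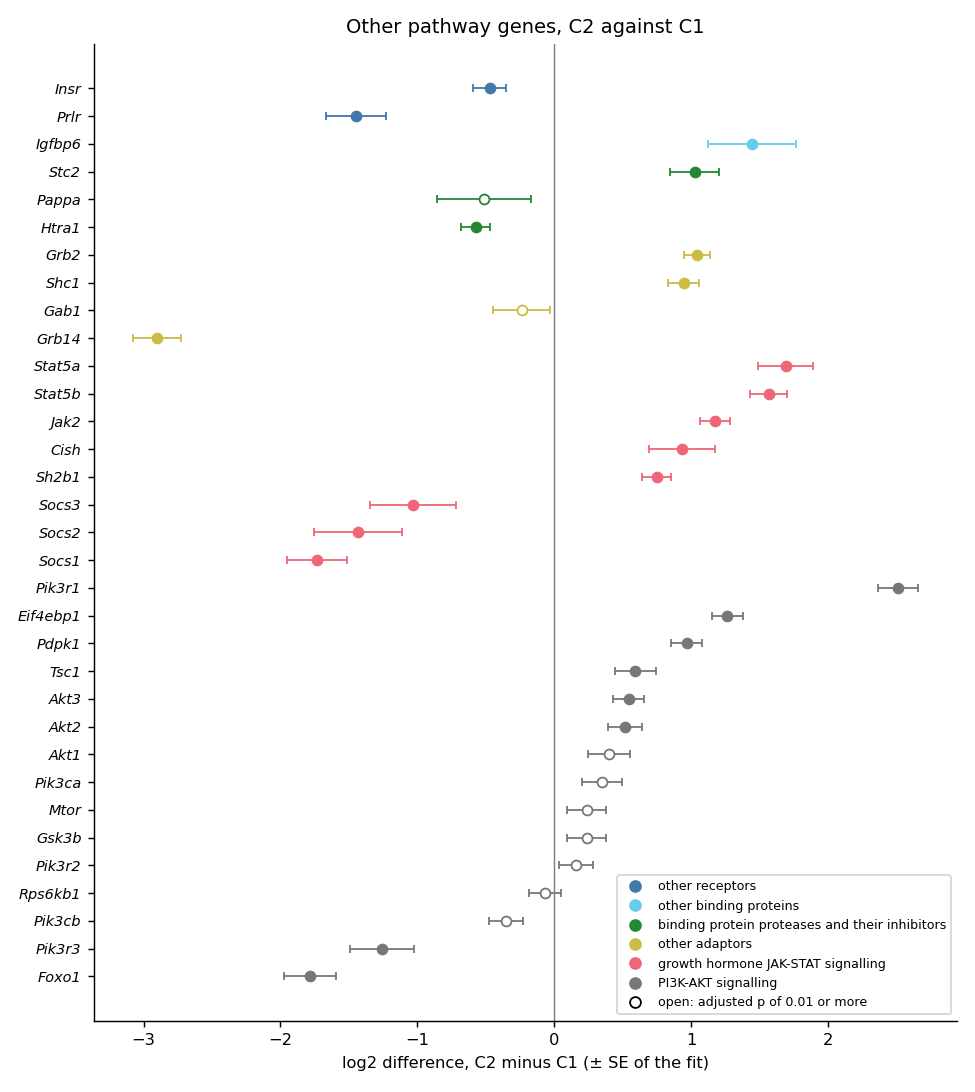
Log2 difference between C2 and C1 (x axis, with the SE of the limma fit) for 33 of the 34 other pathway genes with a valid probe (y axis), grouped by role. Filled points have an adjusted p under 0.01. Pik3r1 lies farthest to the right at 2.51 and Grb14 farthest to the left at -2.90.

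Of the other binding proteins, Igfbp6 rose at C2, where Igfbp1 was well above background in 1 of 5 arrays. Igfbp6, which prefers IGF2, read 1.91, 1.09, 0.053, 0.47 and 0.080 at NC1, 0.85, 0.044, 0.54, 1.22 and 1.48 at C1, and 2.55, 2.39, 2.31, 1.95 and 2.14 at C2. All C2 arrays were above the others, by 1.44 ± 0.32 SE on the mean of C1 (limma adjusted p = 0.00101), although without C2 replicates 1 to 3 the difference of 1.22 had a limma adjusted p of 0.0424. Igfbp1 read 0.0028, 0.44, -0.20, -0.13 and 0.36 at NC1, -2.10, -1.38, -1.32, -2.23 and -1.48 at C1, and -5.61, -4.58, -6.31, -5.59 and -6.62 at C2, with replicate 2 the C2 array well above background. The stages did not overlap, and each was lower than the one before. Igfbp1 was outside the main fit for that reason. In the fit over probes valid in at least 1 stage, C1 minus NC1, both above background in all arrays, was -1.81 ± 0.31 SE (limma adjusted p = 0.00192). With 4 of 5 C2 arrays not well above background, no exact fold is given for C2. Igfbp3 was well above background in 0, 3 and 0 arrays of the stages, and Igfbpl1 and Igfals in none.

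Of 5 genes for binding protein proteases and their inhibitors 3 were valid. A protease gene and an inhibitor gene, 2 of the 3, rose from NC1 to C1, where 1.75% of all valid probes rose. Pappa, the protease that cleaves IGFBP4, read -4.10, -4.68, -4.67, -4.14 and -4.17 at NC1, -2.17, -1.54, -1.31, -0.69 and -1.78 at C1, and -2.87, -2.53, -2.46, -1.28 and -0.92 at C2. NC1 lay below both adult stages without overlap, and 1 of its 5 arrays was not well above background. Pappa was higher at C1 than at NC1 by 2.85 ± 0.34 SE (limma adjusted p = 6.3e-05), whereas C2 minus C1 was -0.51 ± 0.34 (limma adjusted p = 0.213). Its NC1 values lay near the lowest signals well above background on those arrays (-5.11 to -4.45). The difference between C1 and NC1 ran from 1.91 to 3.02 over the 35 alternatives and kept its call. Stc2, whose product inhibits PAPP-A, was higher at C1 than at NC1 by 0.96 ± 0.18 SE (limma adjusted p = 0.00383, a call lost under 14 of 35 alternatives). It rose again to C2, by 1.03 ± 0.18 (limma adjusted p = 0.000127, and 0.0146 with spike-in scaling). Htra1, a serine protease, fell by 0.57 at C2, and Pappa2 and Stc1 had no valid probe.

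**Figure D5:**
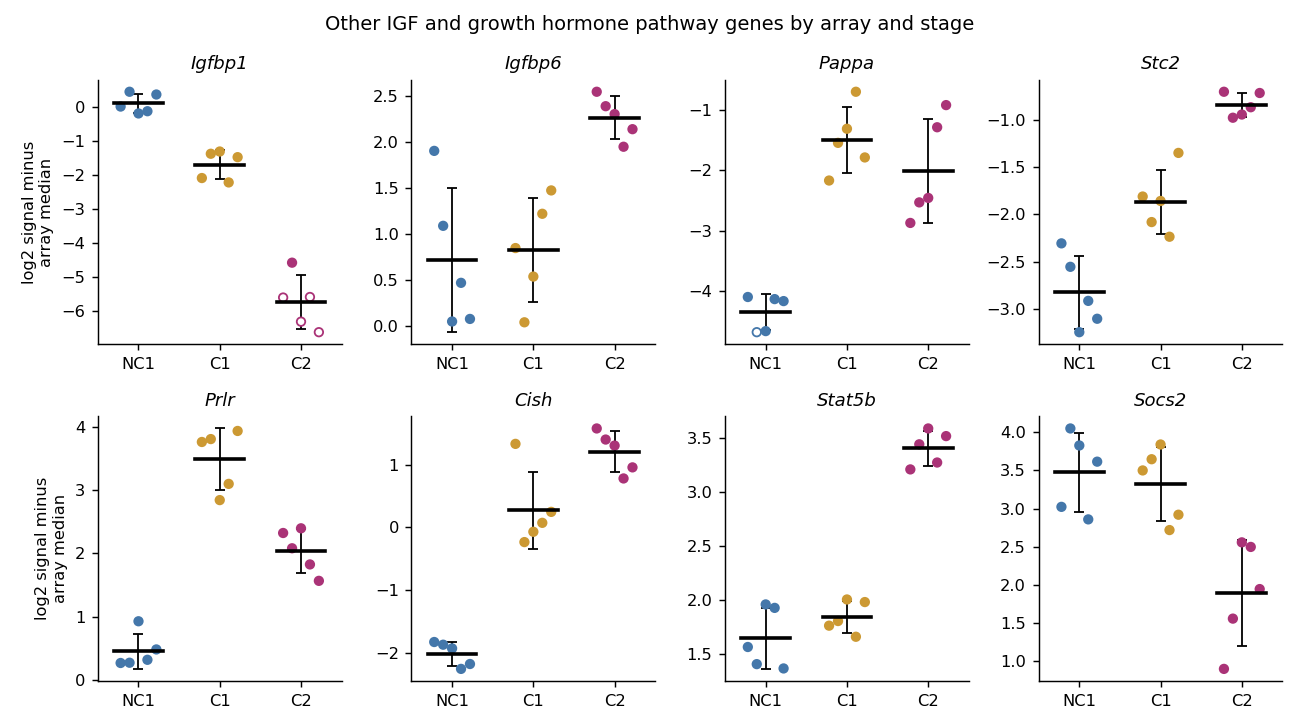
Log2 signal minus the array median (y axis, its own range in each panel) of 8 other pathway genes by stage (x axis). Points are arrays in replicate order, open where the probe was not well above background, with mean and SD (n = 5). Pappa, Prlr and Cish are higher at C1 than at NC1 in every array, and Igfbp1 is lower at each successive stage.

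The growth hormone branch downstream of Ghr moved in both directions. Of its 8 genes, all valid, 5 rose and 3 fell from C1 to C2, where 25.4% of all valid probes rose and 22.2% fell. The kinase Jak2 rose by 1.17 ± 0.11 SE, Stat5a by 1.69 ± 0.20 and Stat5b by 1.57 ± 0.13 (limma adjusted p at most 2.11e-06). The feedback inhibitors Socs1, Socs2 and Socs3 changed by -1.73 ± 0.22, -1.43 ± 0.32 and -1.03 ± 0.31 (limma adjusted p = 4.24e-06, 0.001 and 0.00989). Socs3 was highest at C1, with stage means of 1.53, 2.48 and 1.45, and its C1 and C2 arrays overlapped. Its C2 minus NC1 difference was -0.076 (limma adjusted p = 0.845), and it did not pass the test over the 3 stages (limma adjusted p = 0.0144). Cish, a feedback inhibitor and a known STAT5 target, rose from C1 to C2 instead. It read -1.83, -1.87, -1.93, -2.26 and -2.18 at NC1, 1.33, -0.23, -0.069, 0.074 and 0.25 at C1, and 1.58, 1.40, 1.31, 0.78 and 0.96 at C2. NC1 was below all other arrays, and the rise to C1 was 2.28 ± 0.24 SE (limma adjusted p = 1.52e-05). The further rise of 0.94 ± 0.24 to C2 (limma adjusted p = 0.00305) was 0.60 without C2 replicates 1 to 3 (limma adjusted p = 0.139), 0.81 without C1 replicate 2 (limma adjusted p = 0.0103), and was lost under 6 of 35 alternatives.

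Prlr, the prolactin receptor, which signals through the same kinase and STAT5 proteins, read 0.27, 0.27, 0.93, 0.32 and 0.48 at NC1, 3.76, 3.80, 2.84, 3.10 and 3.93 at C1, and 2.32, 2.08, 2.40, 1.83 and 1.57 at C2. The 3 stages did not overlap. The C1 level was higher than that of NC1 by 3.03 ± 0.22 SE (limma adjusted p = 2.27e-07), where the difference of Ghr was -0.22. C2 minus C1 was -1.45 ± 0.22 (limma adjusted p = 2.66e-05), a call lost with no filter (-1.14, limma adjusted p = 0.0114). The insulin receptor Insr fell by 0.47 ± 0.12 at C2 (limma adjusted p = 0.00307).

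Among the adaptors, Grb14, which inhibits insulin receptor signalling, fell by 2.90 ± 0.18 SE from C1 to C2. Grb2 and Shc1, which link receptors to RAS, rose by 1.05 ± 0.10 and 0.95 ± 0.11. The limma adjusted p of each was at most 2.2e-06, but the Grb2 call was lost with spike-in scaling (0.92, limma adjusted p = 0.0116). Of the 18 PI3K and AKT genes 16 were valid, of which 6 rose, 2 fell and 8 did not pass from C1 to C2, and 0 were called from NC1 to C1, where 47.6% and 2.52% of all valid probes were called. Pik3r1, a regulatory subunit of PI3K, rose by 2.51 ± 0.15 and Eif4ebp1, an mTOR target that restrains translation, by 1.27 ± 0.11. The transcription factor Foxo1, which AKT holds out of the nucleus, fell by 1.78 ± 0.19, and Pik3r3, another regulatory subunit, by 1.26 ± 0.23 (limma adjusted p = 4.81e-07 and 0.000205). The Pik3r3 call was lost with no filter (-0.95, limma adjusted p = 0.0157) and without C2 replicates 1 to 3 (-1.11, limma adjusted p = 0.0148). Akt1 differed by 0.40 ± 0.15 (limma adjusted p = 0.0357) and Mtor by 0.24 ± 0.14 (limma adjusted p = 0.162).

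The genes whose levels over the 15 arrays were most like those of Ghr were Npr2, the receptor for C-type natriuretic peptide (Pearson's r = 0.995), the amino acid transporter Slc38a3 (0.987) and Cyp2s1 (0.985). Those most like Igf1 were Tspan7 (0.986), Plbd1 (0.984) and Ccnb2 (0.983), and those most like Igf1r were Ylpm1 (0.975), B4galt3 (0.953) and Dpy19l3 (0.942). These are descriptions over arrays that share the 3 stages.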

How the data were processed

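Cy3 intensity was measured on 15 Agilent arrays. The authors deposited each array's background-subtracted intensity, extracted with Feature Extraction (10.7.1.1 per the file headers, 10.5.1.1 per the labels). The deposited table of log2 values by the authors matched the log2 intensity plus 1 constant per array (SD over probes at most 0.00819) and served for the choice of probes and as an alternative. Spots of a probe were averaged, control, non-uniform and outlier spots were left out, and each array's median over valid probes was subtracted. Probes were named by accession through RefSeq symbols (26055 of 39429 gene probes; 2770 only by the table; 10604 unnamed). Stages were compared with limma 3.58.1 in R 4.3.3, two-sided, Benjamini-Hochberg adjusted over 17323 probes at 0.01, the study's threshold, and the fit was tested on simulated data. A gene was read by its valid probe with the highest mean. Named pathway genes were those called between successive stages with a log2 change of at least 1, up to 4 a list. Others were named after their values were seen, and 1 listed gene is counted but not reported here by name. The genes and lists were chosen with earlier results of these data known. Normexp used median spot signals, in place of mean signals.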

Additional observations from a re-analysis of the deposited data

How the results depend on the processing

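Of 2450 values, 70 log2 changes under 35 alternatives each, 2311 kept their direction and their side of the threshold, 98 lost the call, 4 gained it and 37 changed sign, each of these without a call. The falls of Igf1, Igf2r, Ghr, Igfbp2 and Igfbp5 from C1 to C2 kept their call under all 35. The omissions of C2 replicates 1 to 3 or 4 and 5 were chosen after seeing the data.

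The count of genes called between NC1 and C1, 1 in the main analysis, was 0 with the 75th percentile, spike-in or normexp settings, no filter, the slide as a block, only the stages compared, the methods' unmoderated test, a minimum of 2-fold or either omission of C2 arrays, and 0 to 1 with single arrays left out. The other pathway genes called between C1 and C2, 24 in the main analysis, numbered 13 with spike-in scaling, 15 with a minimum of 2-fold and 15 without C2 replicates 1 to 3, and between NC1 and C2, where 15 rose and 8 fell in the main analysis, 15 with spike-in scaling and 15 with a minimum of 2-fold.

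The labels give no meaning to shared replicate numbers, and deviations of same-numbered arrays did not all correlate over 0.1: they ran from 0.056 to 0.35 between NC1 and C1, where 3 of 5 pairs were over 0.1, from -0.17 to 0.21 between C1 and C2, and from -0.24 to 0.0023 between NC1 and C2. With the replicate number as a block, Igfbp4 lost its call between NC1 and C1 (-0.84, limma adjusted p = 0.0269, count 0), as did Igf1r between C1 and C2 (-0.42, 0.0121) and the dim Irs1 probe between NC1 and C2 (-0.83, 0.0108), and the other calls of the 9 genes held.

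Sign changes of C1 minus NC1 were, with spike-in scaling, 0.041 for Igf2r, 0.13 for Igfbp5 and 0.075 for Irs2. Igfbp2 gave -0.017 with the median over all probes or no filter and -0.018 with the authors' table, and Igfbp5 0.16 with array weights. With single arrays left out, Igfbp5 ran from -0.22 to 0.070 and Irs2 from -0.32 to 0.088. For C2 minus NC1, Igfbp4 gave -0.011 with the 75th percentile and -0.043 to 0.17 with single arrays left out. Irs2 gave 0.10 with the median over all probes, the authors' table or no filter, 0.038 with array weights, 0.20 without C2 replicates 1 to 3 and -0.28 to 0.18 with single arrays left out. For C2 minus C1, Irs2 gave 0.29 with the median over all probes, the authors' table or no filter, 0.011 with presence in any stage, 0.10 with the slide as a block, 0.14 with array weights, 0.28 without C2 replicates 1 to 3 and -0.20 to 0.26 with single arrays left out, and Irs1 gave 0.081 without C2 replicates 1 to 3. The cause was not tested.

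Scaling on all gene probes moved the median difference over valid probes to -0.14, 0.33 and 0.19 (C1 minus NC1, C2 minus C1, C2 minus NC1), and the share of called probes that were higher at C2 than at C1 from 53.3% to 74.7%, or to 40.5% with spike-in scaling and 44.4% with the 75th percentile. Low signal limits the dim probes.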

Other observations

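Some pathway probes outside the fit were seen in part of the arrays. Insrr, which encodes a receptor related to the insulin receptor, was well above background in 0, 4 and 2 arrays of the successive stages, with mean levels of -5.61, -3.76 and -4.64. Grb10, an adaptor that inhibits insulin and IGF1 receptor signalling, was well above background in 2, 2 and 0 arrays, and Irs4 in 5, 3 and 3.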
